A study of Mus musculus with 8 samples.

Results

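The Hp/Mgst1-high monocytes described here were 502 of 11430 CD45+ cells profiled by single-cell RNA-seq from E0771 mammary tumors. They were chosen from a base set of 8375 cells (73.3% of those deposited) with 500 to 6000 genes, under 10% mitochondrial counts, at least 2000 unique molecular identifiers (UMIs), at most 1 UMI summed over Cd3d, Cd3e and Cd3g, and no Ncr1. Each cell was scored by its counts per 10000 summed over Hp, Mgst1, Ifitm6 and F13a1, and the highest 6%, ranked over all mice together, were taken. These cells are called members below, and the other 7873 cells of the base set the remaining cells.

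The tumors grew in female mice for 18 days from 3 related cell lines. The unselected mouse mammary carcinoma line E0771 is called parental (2 mice, replicates 1 and 3; replicate 2 was not analysed here). Its derivatives E0771-Res1 and E0771-Res2, with 3 mice for each, were both established from E0771 tumors that had relapsed after paclitaxel with anti-PD-1 antibody, so each stands for a single relapse. The labels name no treatment of the profiled mice, no genotype and no age. Viable CD45+ cells, leukocytes of any kind, were tagged by mouse and pooled for library preparation, and each mouse had a leading tag of its own (8 distinct tags); no cell barcode occurred in more than 1 mouse. The mice gave 644 to 2189 cells and 5036667 to 18894504 UMIs, and the members of 1 mouse summed to 370886 to 830269 UMIs.

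Monocytes are made in the bone marrow and circulate in the blood. Classical monocytes carry Ly6C and the chemokine receptor CCR2, enter inflamed tissue and tumors, and there take on antigen presentation and macrophage programs as they lose their blood-borne genes. Patrolling monocytes, which derive from classical ones under the control of Nr4a1, carry CX3CR1 and crawl along vessel walls. Of the 4 genes that define the members, Hp encodes haptoglobin, which binds free hemoglobin and is stored in the granules of young myeloid cells. Mgst1 encodes a membrane glutathione transferase that detoxifies lipid peroxides, Ifitm6 a myeloid member of the interferon-induced transmembrane family, and F13a1 the A subunit of coagulation factor XIII, which crosslinks fibrin.

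The 4 genes lie far apart in the genome (GRCm38, GENCODE M21): Hp on chromosome 8 (109575128 to 109579172, minus strand), Mgst1 on chromosome 6 (138140316 to 138156755, plus strand), Ifitm6 on chromosome 7 (141015699 to 141017924, minus strand) and F13a1 on chromosome 13 (36867178 to 37050244, minus strand). Levels are given as CPM, the UMIs of a gene summed per mouse and scaled to a common total of all genes except mitochondrial, Rpl, Rps and Gm genes. Because the libraries read transcript ends, levels are compared between cells and no conclusion is drawn from levels of different genes. Where a gene is called the most abundant of a list, this refers to counted UMIs only. Hp stood at 1680 ± 113 CPM (SD, n = 8 mice) in members and 94.98 in the remaining cells, Mgst1 at 840 ± 38.1 and 52.0, Ifitm6 at 1306 ± 116 and 155, and F13a1 at 597 ± 108 and 63.8. These levels follow from the rule and carry no test.

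All 4 genes had a UMI in 80.3% of members, 83 cells had 3 of them, 15 had 2 and 1 cell had 1. Hp had a UMI in 98.2% of members, against 7.75% of the 2090 cells highest in the complement genes C1qa, C1qb and C1qc, macrophages in which the gene should be low. The corresponding shares were 94.2% and 11.4% for Mgst1, 98.0% and 10.8% for Ifitm6, and 86.5% and 9.28% for F13a1, at median depths of 8040.5 UMIs in members and 8841.5 in C1q-high cells. With every cell thinned to 2000 UMIs, the Hp shares were 87.5% and 2.34%. The shares in members follow from the rule and carry no test. The 4 members that were also C1q-high were not counted among the C1q-high cells.

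The threshold cut through a continuum. The last member scored 23.1 and the first cell outside 23.0 counts per 10000, the median member 32.3 and the highest 92.5, while the median of the base set was 0.597 and 49.0% of its cells scored 0. The 50 members just inside had a median score of 24.2, with a mean of 24.6 counts per 10000 for Chil3, 20.0 for Ly6c2 and 61.5 for Plac8. The 50 cells just outside had a median score of 22.4, and for the same genes 22.0, 23.4 and 71.7. Cells on both sides of the threshold thus had similar levels of these monocyte genes.

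Down the ranking, several genes outside the score followed it in a graded way. Chil3, a chitinase-like protein of young monocytes and granulocytes, averaged 4319 ± 1474 CPM (SD, n = 8 mice) in members, 2211 ± 740 in the next 6% of the base set, 1328 ± 593 in the 6% after that and 148 ± 55.8 in the lower 49%. Fn1, fibronectin, had averages of 744 ± 140, 349 ± 98.3, 194 ± 45.5 and 30.1 ± 18.9 CPM in the same bands. H2-Aa, the alpha chain of an MHC class II molecule, ran the other way, from 299 ± 161 CPM in members through 723 ± 268 and 1620 ± 340 to 4073 ± 1519 in the lowest band. C1qa averaged 152 ± 72.1 CPM in members and 3069.5 ± 504 in the lowest band. Ly6c2 showed no such gradient over the upper bands, with 2971 ± 480, 2931 ± 541 and 3308 ± 675 CPM. Vcan, the matrix proteoglycan versican, was not highest in members, at 390 CPM against 471 in the next band, and Plac8 differed little between these bands, at 8074 and 7904 CPM.

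**Figure D1:**
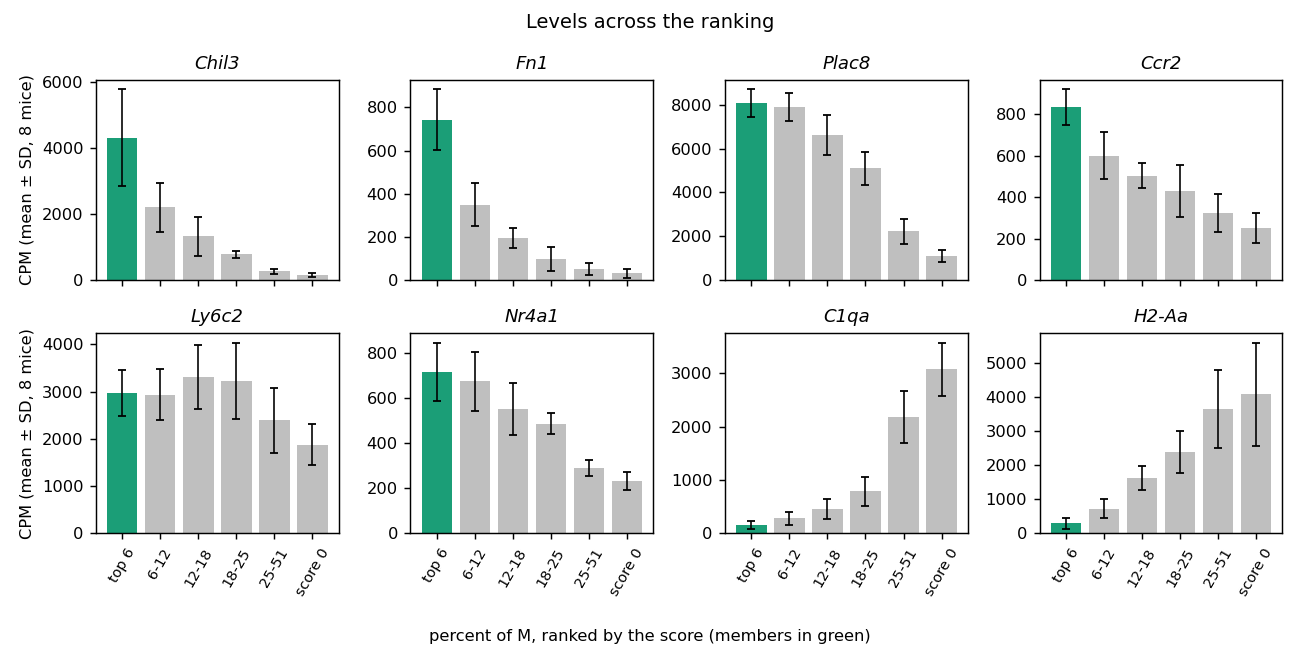
Mean level in CPM (linear axes from 0) of 8 genes outside the score in bands of the base set (M) ranked by the Hp, Mgst1, Ifitm6 and F13a1 score; the green bar is the members, the last bar the cells that scored 0, and error bars are SD over 8 mice. Chil3 and Fn1 were highest in members (4319 and 744 CPM), C1qa and H2-Aa lowest there (152 and 299 CPM), and Ly6c2 had no such gradient.

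The label of these cells, early monocytes, was set against marker lists. Members were monocytes by their genes: monocyte markers that included Fn1, Chil3, Plac8 and Ccr2 were at least 2-fold higher than in the remaining cells in every one of the 8 mice, while others of that list, such as Ly6c2 (1.31-fold on average) and Vcan (3.34-fold), were not, and the median log2 ratio over all 4018 genes was -0.04. Genes of granulocyte-monocyte progenitors stood at low levels, their 9 markers summing to 23.7 to 98.1 CPM over the mice. Ms4a3 and Gfi1 had no UMI in members, and Elane (0.82 CPM), Mpo (0.60), Cd34 (0.19) and Kit (0.19), which mark cells before the monocyte stage, were close to it. The most abundant was Prtn3, the granule protease proteinase 3, at 6.77 CPM in the lowest mouse, 26.7 at the median and 62.1 in the highest, which was above the 0 to 2.92 CPM of the other Ly6c2-high monocytes described below. A Prtn3 UMI was found in 13.7% of members, against 0.935% of those cells and 0.876% of the remaining cells, at median depths of 8040.5, 6755 and 7248 UMIs, and 79.5% of members had no UMI of any of the 9 markers, against 95.4% of the remaining cells. Of the cell cycle genes, none of the 3 that reached the minimum level was at least 2-fold higher in every mouse, and Tubb5, a tubulin, was lower. The members thus had Prtn3 in a minority of cells and most other progenitor genes near 0. None of the 3 cell cycle genes compared was 2-fold higher in every mouse. The members are named here by their leading genes rather than as early.

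Markers of other cells stood at low levels, though those of neutrophils and B cells were found in more members than remaining cells. The neutrophil granule genes Camp and Ngp had no UMI in members and Ly6g averaged 0.19 CPM. The 14 neutrophil markers summed to 194 and 223 CPM in the parental mice, 176, 255 and 158 with E0771-Res1, and 220, 250 and 556 with E0771-Res2, with Mmp8, neutrophil collagenase, the most abundant at a mean of 91.5 CPM. In the remaining cells the sums were 109 to 263 CPM. No UMI of any neutrophil marker was found in 37.3% of members, against 57.6% of the remaining cells, and none of any B cell marker in 54.2% against 74.4%. A UMI of 3 or more neutrophil markers was found in 15 members. Their part in the results was not tested, but the comparisons were repeated without those 15 cells and are given with the other alternatives. The 8 markers of T and NK cells summed to 61.9 and 60.9 CPM in the parental mice, 114, 209 and 81.9 with E0771-Res1, and 183, 94.7 and 58.9 with E0771-Res2, against 142 to 295 in the remaining cells, with Gzma, a granzyme, the most abundant at a mean of 38.6 CPM. In members, 5 of the 6 resistant mice were thus above both parental ones. Markers of B cells summed to 84.8 to 311 CPM, against 71.9 to 87.2 in the remaining cells, with Ighm leading, and the sums for mast cells and basophils, eosinophils, tumor or stroma, erythroid cells and platelets were each at most 8.50 CPM. Of the members, 3 (0.598%) were among the highest 5% of doublet scores of their mouse, against 5.50% of the base set.

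Set against the remaining cells, members had higher Fn1, Chil3, Cd177 and Smpdl3a and lower C1qa, C1qb, C1qc and Ms4a7. This is the contrast of the rule, so it is a description with no test, and a gene is listed where its per-mouse log2 ratio was at least 1, or at most -1, in every one of the 8 mice. Of 4018 genes with a sufficient level, 69 (1.72%) were higher by that criterion and 72 (1.79%) lower, together 3.51%. Fn1 had the largest ratio in its least extreme mouse, with 523 CPM in the lowest mouse, 740 at the median and 942 in the highest, against 38.3, 82.2 and 118 in the remaining cells, a 9.57-fold ratio. Cd177, a neutrophil and monocyte surface glycoprotein, stood at 94.8, 113 and 159 CPM in members against 6.90, 11.3 and 16.9. Smpdl3a, a phosphodiesterase related to acid sphingomyelinase, stood at 670, 736 and 901 CPM against 87.8, 113 and 135, and the highest mouse of the remaining cells was below the lowest mouse of the members for all 3 genes. The other genes in the leading 10 were Chil3 (9.33-fold), Gsr (glutathione reductase, 5.63-fold), Add3, Plcb1, Pdlim1, Mmp8 and Ramp1.

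Of the genes lower in members, C1qa stood at 98.3 CPM in the lowest mouse, 137 at the median and 319 in the highest, against 1702, 1991 and 3315 in the remaining cells, a 15.1-fold difference. Ms4a7, a membrane protein of tissue macrophages, stood at 76.2, 105 and 188 CPM against 1145, 1582 and 2415. C1qb, C1qc, Cd72, Cxcl16, Slamf9, Cd63, C3ar1 and Nr1h3, the liver X receptor alpha, completed the leading 10. The members of every mouse were thus below the remaining cells of every mouse for C1qa and Ms4a7.

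By function, the members' profile divided as follows, each count being genes at least 2-fold apart in every mouse of those with a sufficient level. Higher trafficking genes included Cd44, Ccr2 and Itgb7, with Ccr2 at 674 to 944 CPM and a 2.59-fold ratio. Granule and antimicrobial genes had 4 of 8 higher (Slpi, Chil3, Pglyrp1 and Lyz2; median 1.27), with Lyz2, lysozyme, at 37646 to 44385 CPM and a 4.50-fold ratio. Coagulation and matrix genes had 3 of 10 higher: Fn1, Thbs1 (thrombospondin 1, 3.28-fold) and Emilin2. Glutathione and antioxidant genes had 2 of 15 higher, Gsr and Gstm1, the latter 4.14-fold, and Gpx1, glutathione peroxidase 1, was 1.54-fold higher on average. Trf, transferrin, was higher and Fth1, ferritin heavy chain, lower among 7 haem and iron genes. Ccl6 was the 1 higher gene of 14 inflammatory ones.

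MHC class II and macrophage genes made up the opposite side. H2-Aa, H2-Ab1 and H2-Eb1, 3 of 5 MHC class II genes, were lower with a list median of -3.50, as were 10 of 17 tumor macrophage genes (C1qa, C1qb, C1qc, Mrc1, Pf4, Spp1, Mmp12, Cd63, Lgmn and Ms4a7; median -2.90). None of 16 interferon response genes (median -0.12), 14 glycolysis and hypoxia genes (-0.49), 5 suppressive genes (-0.28) or 15 genes of the stress that tissue dissociation can induce (0.31) was 2-fold apart in every mouse. The shares of all genes listed above, 1.72% and 1.79%, are the background of these counts, from which nothing is read, since the rule fixed the contrast. The genes named in these counts by their direction, beyond those named by the rule on leading and most abundant genes, were chosen after their values were seen.

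A second description set members against 1712 other Ly6c2-high monocytes, cells of the base set in its highest 25% by Ly6c2, outside its highest 25% by C1q genes, and not members. Their Ly6c2 level, at 6895 CPM at the median mouse against 2979 in members, is set by that choice; 167 members (33.3%) lay in the highest 25% by Ly6c2 themselves. Of 4001 genes, 67 were at least 2-fold higher in members in every mouse (1.67%) and 67 lower (1.67%), together 3.35%. The leading higher genes included Fn1 (10.98-fold), Add3 (adducin gamma, 9.47-fold), Smpdl3a (7.47-fold), Chil3 (5.26-fold), Gadd45a (6.48-fold) and Apoc2 (5.16-fold), with Pdlim1, Cd177, Mmp8 and Plcb1.

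Genes of patrolling monocytes were among those higher. Cx3cr1 stood at 74.8 CPM in the lowest mouse, 123 at the median and 165 in the highest in members, against 13.7, 18.2 and 40.1 in other Ly6c2-high monocytes, a 5.21-fold ratio. Ear2, an eosinophil-type ribonuclease, was 3.98-fold, Spn (CD43) 2.46-fold, Ace (angiotensin-converting enzyme) 2.10-fold and Nr4a1 1.96-fold higher on average, and all 4 were higher in 8 of 8 mice. Of the 7 patrolling genes with a sufficient level, Cx3cr1 alone was 2-fold apart in every mouse, and the list median was 1.30 against 0.07 over all genes. Against the remaining cells, all 7 also had a positive ratio, with a list median of 1.11, but none was 2-fold apart in every mouse. The other Ly6c2-high monocytes were chosen by a gene of classical monocytes, and the part of that choice in these ratios was not tested. Ccr2, a classical gene, was also 2.09-fold higher, so that the summed counts of members held both kinds of marker. Whether single members held both was not examined.

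Irf7, Ly6a and Ccl5 were among the genes lower than in other Ly6c2-high monocytes. All 16 interferon response genes had a negative ratio (median -0.80), and Irf7, the interferon amplifying transcription factor, and Bst2, tetherin, were the 2 that were at least 2-fold lower in every mouse. Irf7 stood at 556 CPM in the lowest mouse, 837 at the median and 1121 in the highest in members, against 2393, 2484 and 2760. Ly6a, Sca-1, was 10.0-fold lower, at 84.8 to 467 CPM against 1202 to 2376. Ccl5, a T cell attracting chemokine, was 12.6-fold lower, and Kdr, Cxcl16, Cd72, Mmp14, Slamf7, Nr1h3, Ms4a7 and Cd63 completed the leading 10. The remaining cells differed from members less in interferon genes, with a median of -0.12, so this separation was seen against the Ly6c2-high cells.

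**Figure D2:**
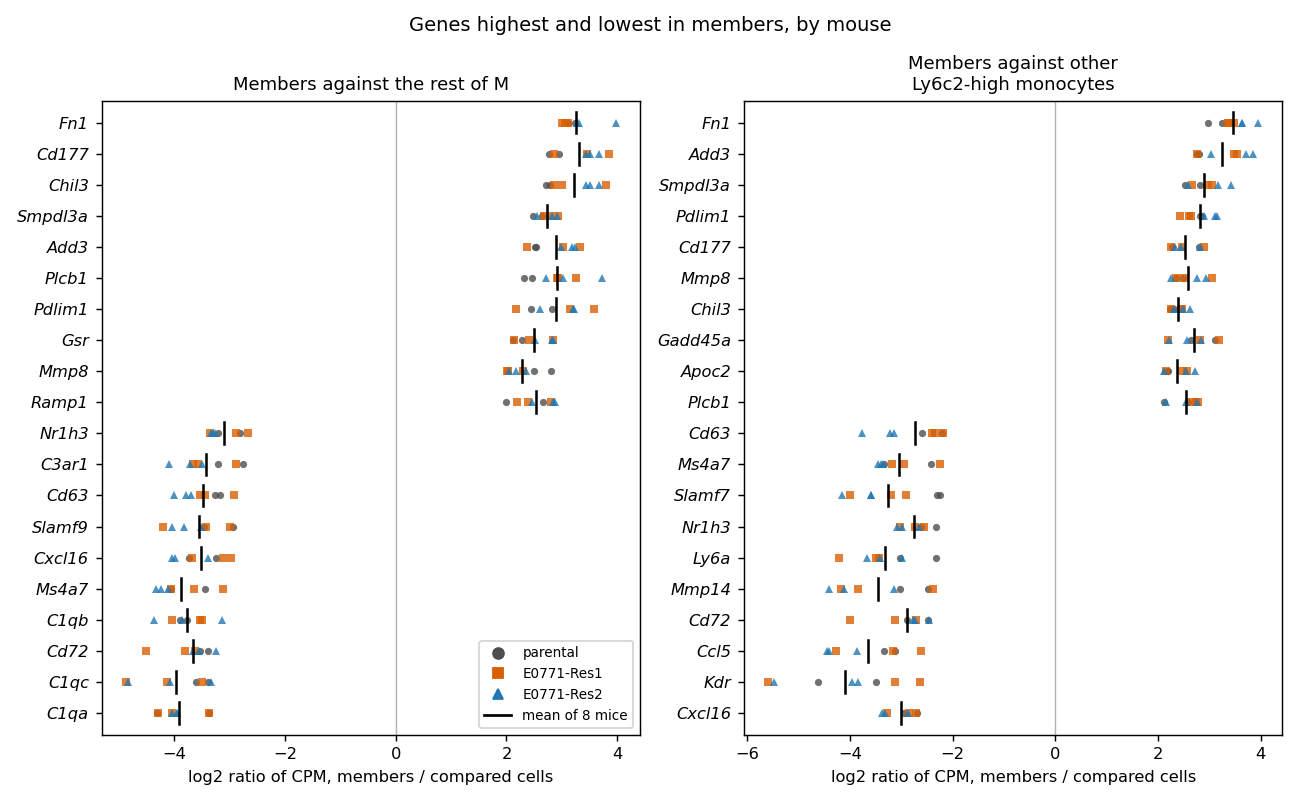
Log2 ratio of CPM in members over the remaining cells of the base set M (left) and over other Ly6c2-high monocytes (right) for the leading 10 genes in each direction; points are mice, colored by tumor, and black lines the mean of 8 mice. Every point of the higher genes lies above 1 and every point of the lower genes below -1, as the criterion requires, with Fn1 at a mean of 3.26 and 3.46.

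The members' share of the base set varied widely within the tumor groups. It was 7.90% and 9.83% in the parental mice, 4.32%, 8.66% and 7.42% with E0771-Res1 and 4.58%, 8.70% and 3.30% in the E0771-Res2 mice. Each resistant line had a mouse inside the parental range and mice below it. The mean of the resistant mice was 2.70 points lower than that of the parental mice (p = 0.214, two-sided exact permutation test over 28 splits, smallest possible p 0.0357; adjusted p = 0.533 over 4 comparisons). E0771-Res1 differed from parental by -2.07 points (exact p = 0.4), E0771-Res2 by -3.34 points (exact p = 0.3), and E0771-Res2 from E0771-Res1 by -1.28 points (exact p = 0.8); with 3 mice or fewer a group these tests cannot go below 0.1. The 95% exact binomial intervals, which cover counting error only, were 6.18% to 9.91% in parental replicate 1 and 2.47% to 4.32% in E0771-Res2 replicate 3, the lowest mouse. Taken instead as a share of members and other Ly6c2-high monocytes together, the values were 19.6% and 25.7% in parental mice, 21.4%, 31.6% and 27.4% with E0771-Res1, and 18.4%, 33.4% and 14.5% with E0771-Res2, and the resistant mean was then 1.82 points higher than the parental one. By that count the difference from parental was 4.14 points for E0771-Res1, a turned sign, and -0.513 points for E0771-Res2. With every cell thinned to 2000 UMIs before scoring, since the median depth of the base set was 8148 and 8212 UMIs in parental mice and 5871 to 7207 with E0771-Res2, the shares of the base set were 9.52% and 10.04% in parental mice, 4.13%, 9.07% and 7.83% with E0771-Res1, and 5.31%, 7.59% and 2.33% with E0771-Res2. The parental mice were then above all 6 resistant ones, with a resistant minus parental difference of -3.74 points (exact permutation p = 0.107). The difference passed the threshold in none of these 3 ways of counting, and its sign depended on the denominator.

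**Figure D3:**
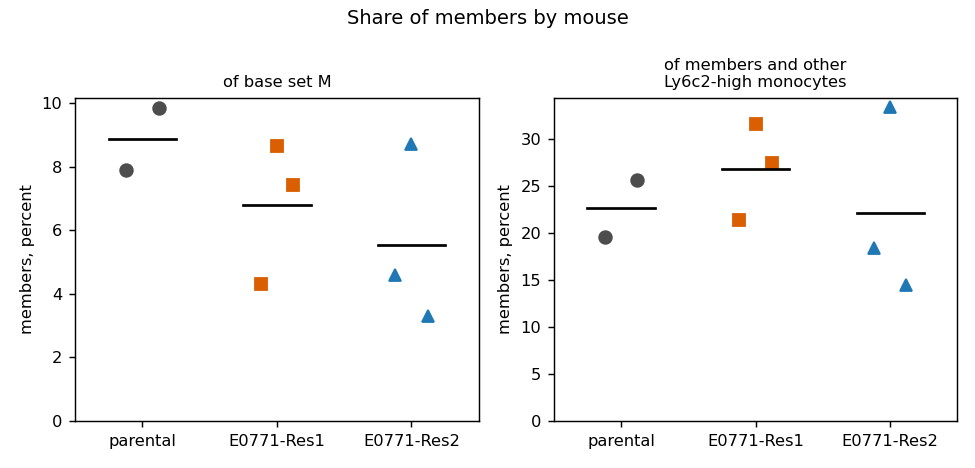
Members as a percent of the base set (M, left) and of members plus other Ly6c2-high monocytes (right) in each mouse, by tumor; points are mice and black lines group means. The groups overlap in both panels, and parental mice at 7.90% and 9.83% of the base set lie among or above the resistant ones.

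Whether the members themselves differed between tumors was asked on the counts summed per mouse, with edgeR's quasi-likelihood test on 5169 genes and Benjamini-Hochberg adjustment over all of them; the score genes were left out. Against parental tumors, members from resistant tumors had higher Hspa1a, Klf2, Jun, Cxcl2 and Ccl3 and lower Ly6a, Il1rn, Ifit1bl1 and Fcgr1. At an adjusted p under 0.05, 10 genes were higher (0.193%) and 13 lower (0.251%), together 0.445% of those tested. The groups of mice did not overlap for 11.5% of genes. The median log2 difference over all genes was 0.01. Fewer transcripts per cell and fewer expressing cells cannot be told apart in summed counts.

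The largest increases with groups apart included a heat shock gene and 2 transcription factors. Hspa1a, an inducible Hsp70 chaperone, stood at 51.3 and 44.0 CPM in parental mice, 319, 447 and 158 with E0771-Res1, and 151, 447 and 275 with E0771-Res2. Every resistant mouse was above both parental mice, and the log2 difference was 2.64 ± 0.44 (SE; edgeR adjusted p = 0.00554). Hspa1b, its near-identical neighbor, rose by 2.45 ± 0.52 (edgeR adjusted p = 0.0400), and how reads were divided between the 2 copies is uncertain. Klf2, a transcription factor of quiescent leukocytes, stood at 179 and 159 CPM in parental mice, 748, 321 and 246 with E0771-Res1, and 630, 1122 and 1292 with E0771-Res2. The groups did not overlap for Klf2 either, with a log2 difference of 1.98 ± 0.34 (edgeR adjusted p = 0.00796). Jun, a subunit of the AP-1 transcription factor, stood at 780 and 532 CPM against 1806, 1037 and 1196, then 1758, 2596 and 2982, and rose by 1.46 ± 0.21 (edgeR adjusted p = 0.00167). Hist1h1c, a linker histone, rose by 1.87 ± 0.28 and Dusp1, a MAP kinase phosphatase, by 0.92 ± 0.18. The lncRNA 2810013P06Rik rose by 2.64 ± 0.58 with an edgeR adjusted p of 0.04996, just inside the threshold.

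The chemokines Cxcl2 and Ccl3 rose as well. Cxcl2, which draws neutrophils through CXCR2, stood at 1519 and 697 CPM in parental mice, 2630, 5899 and 3902 with E0771-Res1, and 3270, 2657 and 4192 with E0771-Res2. All 6 resistant mice were above the parental ones, by 1.74 ± 0.28 on the log2 scale (edgeR adjusted p = 0.00396). Ccl3, MIP-1 alpha, stood at 476 and 427 CPM against 953, 881 and 705, then 1029, 1072 and 1131, a narrow spread within each group and a log2 difference of 1.08 ± 0.13 (edgeR adjusted p = 0.000412). Ccrl2, an atypical chemoattractant receptor, rose by 0.96 ± 0.19.

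Among genes that fell, the interleukin-1 receptor antagonist gene Il1rn stood at 269 and 284 CPM in parental mice, 152, 149 and 173 with E0771-Res1, and 108, 93.1 and 85.0 with E0771-Res2. The 3 tumor groups did not overlap, and the log2 difference between resistant and parental was -1.16 ± 0.15 (edgeR adjusted p = 0.000965). Ly6a stood at 256 and 467 CPM against 152, 129 and 84.8, then 103, 150 and 134, a difference of -1.47 ± 0.21 (edgeR adjusted p = 0.00167). Ifit1bl1, an interferon-induced gene of the Ifit family, stood at 83.3 and 251 CPM against 38.0, 26.5 and 17.6, then 34.4, 47.3 and 75.2. The highest resistant mouse came close to the lower parental one, and the difference was -2.05 ± 0.35 (edgeR adjusted p = 0.00608). Fcgr1, the high-affinity IgG receptor CD64, stood at 825 and 901 CPM against 451, 470 and 559, then 589, 501 and 527, with -0.74 ± 0.12 (edgeR adjusted p = 0.00396). Scimp, an adaptor of Toll-like receptor signaling, fell by 1.24 on the log2 scale, Got1, aspartate aminotransferase, by 1.14, and Ifit1 by 0.93, the last with an edgeR adjusted p of 0.04996. Phf11d, Ifi205, Parp14, Msr1, Ms4a6d and Ms4a4c made up the other 6.

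**Figure D4:**
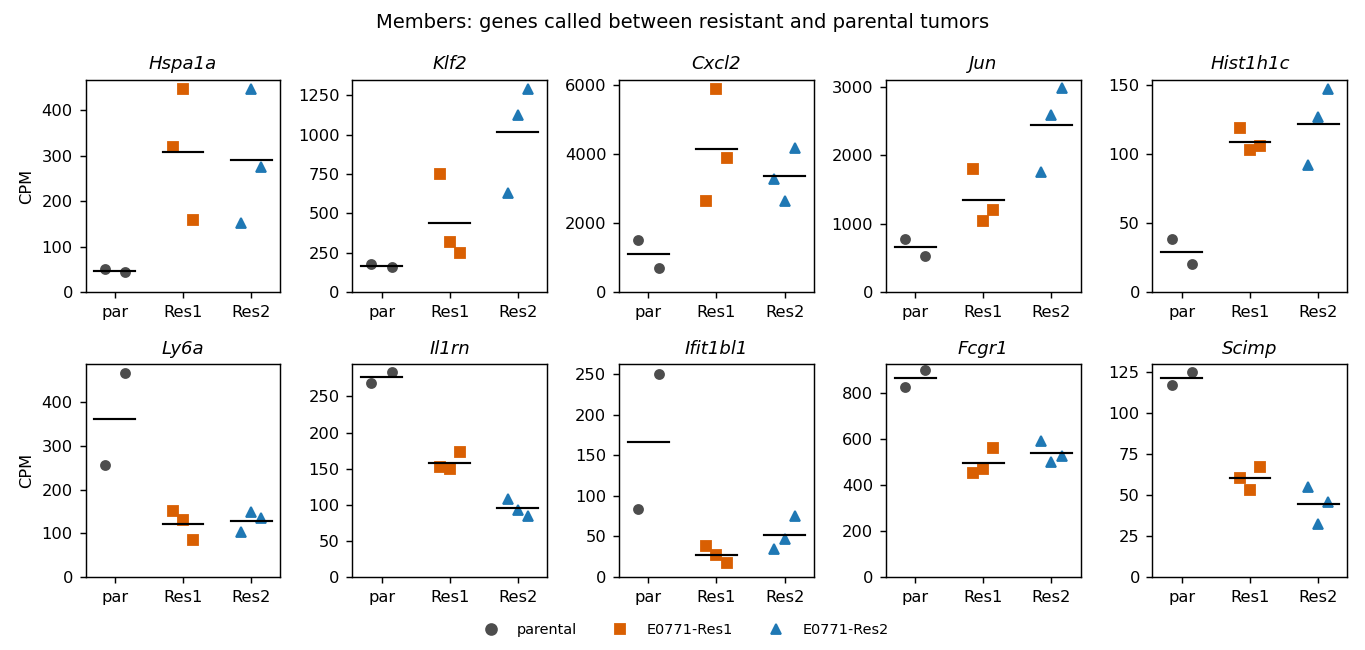
Level in CPM (linear axes from 0) of 5 genes that rose and 5 that fell in members of resistant tumors, 1 point per mouse, by tumor; black lines are group means. Hspa1a, Klf2, Cxcl2, Jun and Hist1h1c lie higher, and Ly6a, Il1rn, Ifit1bl1, Fcgr1 and Scimp lower, in all 6 resistant mice than in the 2 parental ones.

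The number of calls depended on single mice. Without 1 of the 2 parental mice, here and in the comparisons below, a single parental mouse was left and the spread came from the resistant groups alone. Without parental replicate 3, 2 genes passed in place of 23, and Ccl3 was the 1 shared with the 23; 15 passed without E0771-Res2 replicate 2, and 35, 39 and 37 passed without E0771-Res1 replicate 1, E0771-Res1 replicate 3 and E0771-Res2 replicate 3. When the highest 6% was taken within each mouse instead of over all mice, 3 of the 23 (Ccl3, Jun and Hist1h1c) still passed, while the log2 difference of Il1rn moved to -0.30 and that of Ly6a to -0.69.

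Groups by function gave a mixed picture. Of 15 dissociation stress genes tested, 4 rose (Hspa1a, Hspa1b, Jun and Dusp1) and none fell by that test, beside 0.193% of all 5169 genes higher and 0.251% lower, and the list median was 0.53. The summed level of this list in members was 12990 and 10739 CPM in parental mice, 18764, 14789 and 15114 with E0771-Res1, and 16872, 20361 and 20860 with E0771-Res2. In other Ly6c2-high monocytes the sums were 12106 and 12439, then 15267, 13862 and 13551, then 12958, 16434 and 15665 CPM, also lower in both parental mice than in any resistant one. The part of tissue handling in the results was not tested. Of 16 interferon response genes, Ifit1 alone fell; all 16 had a negative difference, with a list median of -0.55. Of 15 inflammatory genes, 2 rose (Cxcl2 and Ccl3) and Il1rn fell, and of 7 Ifitm and Ly6 genes Ly6a fell. None of 5 MHC class II genes passed, with a list median of -0.84, and none of 9 granule, 16 tumor macrophage, 17 glutathione and antioxidant, 12 coagulation and matrix, 14 glycolysis and hypoxia or 6 suppressive genes passed. None of 10 patrolling monocyte markers passed either; 8 of them had a positive difference, with a list median of 0.48. None of 9 macrophage markers passed, 8 with a positive difference and a list median of 0.19. Among monocyte markers, Ms4a4c fell by 0.44 on the log2 scale (edgeR adjusted p = 0.0387), and the difference was -0.33 for Ly6c2 and -0.18 for Ccr2, neither of which passed. Of the T and NK cell markers, 2 of 8 had enough counts to be tested, Gzma with a difference of 1.54 and Nkg7 with 0.56 (list median 1.05), and neither passed. The part of these cell type markers in the rises of Klf2, Ccl3 and the other genes was not tested.

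The promoters of these genes were searched for 2 short motifs, in windows of 300 bases from 250 before to 50 after each start site (RefSeq, GRCm38.p6). The core of the interferon-stimulated response element, taken as 2 copies of GAAA spaced by 2 bases on either strand, occurred in promoters of 3 of the 8 lower genes that had one in the table (Ifit1, Ifit1bl1 and Ifi205), in none of 9 higher genes and in 3.99% of all 27025 genes. The stretches around the matches are shown because 3 of the genes that fell, all of the Ifi and Ifit families, shared the motif, with the motif or its reverse complement in capitals, read along each gene's strand.

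Ifit1: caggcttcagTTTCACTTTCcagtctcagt

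Ifit1: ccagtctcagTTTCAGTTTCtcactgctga

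Ifit1bl1: actctgtaggTTTCATTTTCtgtaggttgg

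Ifi205: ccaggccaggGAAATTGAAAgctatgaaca

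These lie at chr19:34640775-34640804 and chr19:34640794-34640823 (plus strand), chr19:34602053-34602082 (minus strand) and chr1:174031870-174031899 (minus strand), all upstream of the start; a further match within Ifi205 and one at a second Ifit1bl1 start are not shown. The 8-base core of the heat shock element, GAANNTTC, which is its own reverse complement, occurred in 3 of 9 higher genes (Hspa1a, Hspa1b and Jun), in 1 of 8 lower genes (Fcgr1) and in 9.04% of all genes. The Hspa1a and Jun stretches are given for genes that rose.

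Hspa1a: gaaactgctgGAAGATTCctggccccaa

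Jun: gcccagagaaGAATCTTCtagggtgagg

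They lie at chr17:34972243-34972270 and chr4:95052333-95052360, both on the minus strand, and the Hspa1b window at chr17:34959325-34959352 has the same letters as that of Hspa1a. A match describes the letters of the window and not occupancy by a factor.

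Each resistant line was also set against the same 2 parental mice, so the following comparisons are not independent of each other. In E0771-Res1, 4 genes rose (0.0774%) and 5 fell (0.0967%), together 0.174%, and groups did not overlap for 23.8% of genes. The risers were Hspa1a (2.65 ± 0.47 on the log2 scale), Cxcl2 (1.88 ± 0.30), Hist1h1c (1.80 ± 0.31) and Ccl3 (0.90 ± 0.14). Ifit1bl1 (-2.47 ± 0.43), Ly6a (-1.52 ± 0.25), Ifit3 (-1.45 ± 0.28), Phf11d (-1.25 ± 0.25) and Fcgr1 (-0.81 ± 0.13) fell. Ifit3, an interferon-induced antiviral protein, stood at 605 and 897 CPM in parental mice and 386, 152 and 257 in E0771-Res1, with edgeR adjusted p = 0.0357. The T and NK cell markers Gzma and Nkg7 were higher in all 3 mice than in both parental ones, with a list median of 1.25, and neither passed. Without parental replicate 3, 1 gene passed, and without E0771-Res1 replicate 1, E0771-Res2 replicate 1 and E0771-Res2 replicate 3, 18, 15 and 28 passed. None of the 9 genes named here passed without parental replicate 3, and no gene passed by edgeR when the highest 6% was taken within each mouse.

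In E0771-Res2, 14 genes rose (0.271%) and 16 fell (0.31%), together 0.58%, and groups did not overlap for 28.2% of genes. Klf2 rose by 2.58 ± 0.36, Jun by 1.89 ± 0.23, Fosb by 1.77 ± 0.30 and Fos by 1.47 ± 0.27, all on the log2 scale, with the lncRNA 2810013P06Rik at 3.56 ± 0.54. Fos, the partner of Jun in AP-1, stood at 1361 and 708 CPM in parental mice and 2331, 3344 and 2956 in E0771-Res2, without overlap. Of 15 dissociation stress genes, 6 rose, with a list median of 0.66. Creb5 (-2.04 ± 0.43), Met, the hepatocyte growth factor receptor (-1.88 ± 0.38), Il1rn (-1.51 ± 0.18), Scimp (-1.48 ± 0.26) and Got1 (-1.47 ± 0.28) fell most. Thbs1, the thrombospondin gene that was high in members, stood at 1346 and 1361 CPM in parental mice and 694, 899 and 592 in E0771-Res2, and fell by 0.87 on the log2 scale (edgeR adjusted p = 0.0408). In E0771-Res1 it stood at 768, 1335 and 845 CPM, of which 1 mouse was close to the parental level. The number of calls was 16 without parental replicate 1, 4 without parental replicate 3 and 15 without E0771-Res2 replicate 2, in place of 30, and 10 when the highest 6% was taken within each mouse.

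Between E0771-Res2 and E0771-Res1 no gene passed by edgeR (0%), with 346 genes at an unadjusted p under 0.05 (6.69%) and 1 gene passing by DESeq2. The groups did not overlap for 12.4% of genes, among them Il1rn, which did not pass. Without E0771-Res1 replicate 1, 26 genes passed, without E0771-Res2 replicate 1, 9, and without E0771-Res1 replicates 2 and 3 in turn, 1 and 3.

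The difference between tumors was then compared between members and other Ly6c2-high monocytes of the same mice, by an interaction test in edgeR on 7023 genes with the mouse as a block. For 28 genes (0.399%) the difference of resistant minus parental was lower in members, and for 7 (0.0997%) higher, together 0.498%; the median over all genes was 0.01. The lower side included Il1rn, Ccl4 and 5 genes of the Ifit family, and the higher side Fos, Fosb, Klf2 and Cxcl2. Of 16 interferon response genes, 6 were lower in this test, Ifit1, Ifit2, Ifit3, Cxcl10, Isg15 and Irf7, and the median of all 16 was -0.65.

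Il1rn had the lowest adjusted p of the 35 genes. In members it stood at 269 and 284 CPM in parental mice and between 85.0 and 173 in resistant ones, while in other Ly6c2-high monocytes it stood at 685 and 599 CPM in parental mice, 818, 782 and 963 with E0771-Res1, and 949, 736 and 932 with E0771-Res2. The gene was thus lower in every resistant mouse in members, and higher in every resistant mouse in the other monocytes, with an interaction of -1.63 ± 0.17 (edgeR adjusted p = 2.88e-06). Ccl4, MIP-1 beta, stood at 1660 and 1199 CPM in parental members, 1523, 1514 and 597 with E0771-Res1, and 1701, 1316 and 1517 with E0771-Res2, with overlap. In other Ly6c2-high monocytes it stood at 2230 and 2028, then 3652, 4147 and 2878, then 4795, 4246 and 4339 CPM, without overlap, and the interaction was -1.08 ± 0.17 (edgeR adjusted p = 0.00254).

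Isg15, a ubiquitin-like antiviral protein, stood at 2194 and 3413 CPM in parental members, 1585, 1491 and 1957 with E0771-Res1, and 2017, 1875 and 2515 with E0771-Res2. In other Ly6c2-high monocytes it was 5048 and 5781, then 6024, 5750 and 5719, then 5962, 5699 and 6007 CPM, and parental and resistant mice overlapped in both cell sets. The interaction was -0.72 ± 0.13 (edgeR adjusted p = 0.00826). For Irf7 the interaction was -0.62 ± 0.14, with 1004 and 1121 CPM in parental members and 556 to 988 in resistant ones, against 2393 to 2760 CPM in other Ly6c2-high monocytes of all 8 mice.

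On the higher side, Klf2 stood at 167 and 191 CPM in parental other Ly6c2-high monocytes, 257, 261 and 212 with E0771-Res1, and 220, 391 and 511 with E0771-Res2. These are smaller steps than those of members, and the interaction was 1.12 ± 0.26 (edgeR adjusted p = 0.0435). Cxcl2, at 2150 and 1850 CPM in parental other monocytes and 1779 to 5197 in resistant ones, had an interaction of 1.08 ± 0.20 (edgeR adjusted p = 0.00826). Kctd12, a subunit of the GABA-B receptor complex, stood at 130 and 125 CPM in parental members and 143 to 279 in resistant ones, and at 149 and 127 against 79.5 to 135 in the others, an interaction of 1.04 ± 0.22. Saa3, an acute-phase protein, had the lowest value of all, -5.50 ± 0.91, which rests on 1 mouse: 165 CPM in members of parental replicate 1, and 0 to 6.70 CPM in members of the other 7.

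The number of calls in this test was 11 without parental replicate 1 and 8 without parental replicate 3, in place of 35. When the highest 6% was taken within each mouse it was 4, among them Ccl4 and Ifitm1. The interaction of Il1rn was then -0.79 (edgeR adjusted p = 0.643), that of Klf2 0.97 (edgeR adjusted p = 0.543) and that of Ifit3 -0.86 (edgeR adjusted p = 0.731). With all remaining cells of the base set in place of other Ly6c2-high monocytes, 7 of 22 named interaction results kept direction and side of the threshold. Of the others, 14 kept direction only and 1 reversed.

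**Figure D5:**
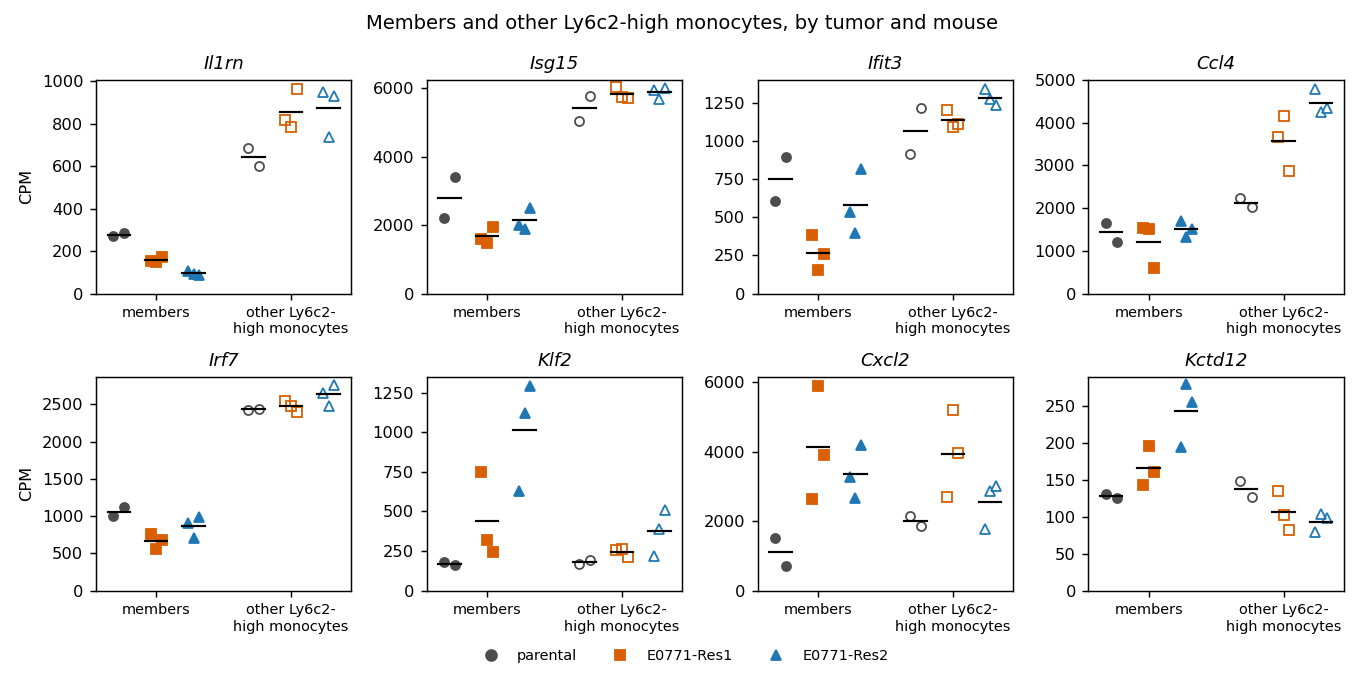
Level in CPM (linear axes from 0) of 8 genes in members (filled points) and in other Ly6c2-high monocytes (open points) of each mouse, by tumor; black lines are group means. Il1rn is lower in resistant mice in members and higher in the other monocytes, and Klf2 in resistant mice lies further above the parental mice in members than in the other monocytes.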

How the data were processed

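CD45+ cells were profiled with Chromium 3′ libraries, mouse tags marking the sample. Count matrices of whole-number UMI counts per gene and cell were deposited by the authors, 1 per mouse. The matrix headers give Cell Ranger 6.1.2, and the submitters' notes name mm10, Cell Ranger and Seurat. No other normalization preceded deposit, and 0 sample columns were left unused.

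Cells were filtered and scored as in the rule given above. Scrublet was run per mouse in scanpy 1.11.5, and because its automatic threshold marked 53 cells (0.464%), its calls were not used and no doublet was removed; leaving out the highest 5% of scores per mouse was an alternative. Counts were summed per mouse and cell set. Mitochondrial, Rpl, Rps and Gm genes (8652) and the 4 score genes were left out. Tests used edgeR 4.0.16 (quasi-likelihood, TMM, filterByExpr) in R 4.3.3, with DESeq2 1.42.0 as an alternative, at an adjusted p of 0.05, and were first checked on simulated counts. Shares were tested by exact permutation (numpy 2.4.6). Ratios between cell sets used a prior count of 2 on genes averaging at least 5 log2 CPM, and were not tested. Mx1 and Clec7a were not analysed here. A gene of the trafficking and monocyte lists is not reported here.

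Named genes were, in each direction, the 5 with the largest difference among those passing, with groups that did not overlap and the same minimum level; up to 4 passing genes of each list; for descriptions, the 10 with the largest ratio in their least extreme mouse and the 4 most abundant of each list. Other names were chosen after their values were seen. The members, lists and tests were chosen with earlier results of these data known. Same-numbered mice of different tumors did not deviate together (correlations of -0.06 to 0.10 over 7 pairs), so the numbers were not used as pairs. Mice are separate animals by their labels. Counts of same-group mice differed by more than counting error, which does not tell variation between animals from variation between cells. Alternatives were other cutoffs and scores, ranking within mice, other normalization, filters and tools, and leaving out each mouse.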

Additional observations from a re-analysis of the deposited data

Results flagged for a closer look

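For 35 genes the difference between resistant and parental tumors was not the same in members as in other Ly6c2-high monocytes of the same mice, by edgeR's interaction test with Benjamini-Hochberg adjustment over 7023 genes. Of the genes with an average log2 CPM of at least 5 chosen by size, those lower in members were Ifit1bl1 (-2.16 on the log2 scale), Inhba, an activin subunit (-2.01), Creb5 (-1.69), Il1rn (-1.63) and Ifit3b (-1.63). Those higher were Ifitm1 (2.07), Klf2 (1.12), Fosb (1.11), Cxcl2 (1.08) and Kctd12 (1.04).

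The values behind 3 of them were as follows. Inhba stood at 49.1 and 13.5 CPM in parental members and 4.58 to 29.3 in resistant ones, and at 65.02 and 26.3 against 65.04 to 127 in other Ly6c2-high monocytes, so that 1 parental mouse of the members stood apart from the rest. Ifit3b stood at 126 and 149 CPM in parental members and 29.3 to 131 in resistant ones, with 1 E0771-Res2 mouse at the parental level, against 205 and 267, then 207 to 366 in the others; its counts are uncertain because it is a near copy of Ifit3. Ifitm1 stood at 17.1 and 60.9 CPM in parental members and 32.1 to 96.0 in resistant ones, and at 101 and 183 against 25.2 to 104 in other Ly6c2-high monocytes, with overlap in both sets. The tumor groups held 2 or 3 mice, and single mice were not tested as outliers.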

How the results depend on the processing

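Without a replicate in turn, the number of genes called ranged from 2 to 39 for resistant against parental (23 with all mice), 1 to 28 for E0771-Res1 (9), 4 to 40 for E0771-Res2 (30), 0 to 26 between the resistant lines (0) and 8 to 44 for the interaction (35). The differences in share ranged from -3.67 to -1.74, -3.03 to -0.827, -4.93 to -2.23 and -2.86 to -0.164 points, and the genes 2-fold apart in every mouse from 145 to 158 and 135 to 166.

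For the same 5 tests in that order, the counts were 9, 6, 20, 1 and 19 with the highest 4% as members, 20, 1, 33, 1 and 26 with the highest 9%, 16, 6, 27, 0 and 13 with scores on cells thinned to 2000 UMIs, 39, 18, 33, 6 and 32 with log-summed scores, 53, 29, 51, 9 and 42 without the highest doublet scores, 19, 8, 33, 5 and 39 without members holding neutrophil markers, and 3, 0, 10, 0 and 4 with ranking within each mouse. They were 106, 83, 107, 61 and 69 with no filter on low counts and 15, 8, 21, 1 and 15 with DESeq2. With the replicate number as a block the first 4 were 20, 14, 29 and 7, and with totals thinned to the smallest mouse 18, 12, 24 and 3. The interaction against all remaining cells of the base set gave 13, and 7 of its 22 named results kept direction and side of the threshold. RLE normalization and keeping all genes moved no count by over 1.5 times. With no minimum level, 451 and 215 genes were 2-fold apart in every mouse. Of members and other Ly6c2-high monocytes together, the share difference turned to 1.82 points for resistant and 4.14 for E0771-Res1. The cause of these movements was not tested.

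Over 61 results on named genes, 916 of 1227 alternative values kept direction and side of the threshold and 310 kept direction only. Slpi reversed to 0.12 in the interaction against all remaining cells. These totals pool alternatives that differed widely. With no filter on low counts all 61 kept both, while with ranking within each mouse 14 kept both and 47 kept direction only. With 2 parental mice and 42 to 102 members a mouse, small differences may have been missed, and the smallest detectable difference is not given here.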

Other observations

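Of the 3055 deposited cells outside the base set, 41 (1.34%) reached the lowest member score, and 17 of these had under 2000 UMIs. The members' median share of mitochondrial counts was 1.80% averaged over the 8 mice, against 1.41% in the base set, and their median number of genes averaged 2243 against 2214. By their depth, members differed little between tumors: the median UMI count of a member averaged 8320 in parental mice, 8015 in E0771-Res1 and 7736 in E0771-Res2, while that of other Ly6c2-high monocytes averaged 8050, 7405 and 5720.

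The sum of the 16 interferon response genes in members was 19142 and 21573 CPM in the parental mice, 14404, 10228 and 14731 with E0771-Res1, and 15103, 13353 and 18610 in E0771-Res2, lower in each resistant mouse than in both parental ones.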
